A study of Mus musculus with 6 samples.

Results

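The 10 genes described here encode the core of Notch signalling: the receptors Notch1, Notch2, Notch3 and Notch4, the ligands Dll1, Dll3, Dll4, Jag1 and Jag2, and Rbpj, the DNA-binding protein through which the receptors act in the nucleus. They were chosen by gene symbol, and all 10 were found, each in 1 row, among the 48526 genes of the table. Mouse forebrains were freed of meninges at postnatal day 6, and RNA was sequenced from dissociated cells sorted by YFP and by the DNA stain Hoechst. They were labelled as oligodendrocyte precursor cells (OPCs), the dividing glia that give rise to myelinating oligodendrocytes. The 3 Ep400 cko replicates had the genotype CNP1::Cre, conditional Rosa26stopflox-YFP and conditional Ep400. The 3 ctrl replicates had CNP1::Cre and conditional Rosa26stopflox-YFP, so Cre and the reporter were carried by both groups, and all animals had a mixed 129SvJ/C57Bl/6J background. Cre is driven by the promoter of Cnp, a gene of the oligodendrocyte lineage, and a cell turns YFP on only after recombination, so sorted cells could include any cell in which Cnp-driven Cre had acted. Ep400 is the ATPase of a chromatin remodelling complex that exchanges histone variants. The labels do not say whether the Ep400 allele was recombined in every sorted cell, or whether a replicate was 1 animal or a pool.

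Notch receptors are single-pass membrane proteins that are activated by ligands on a neighbouring cell. Ligand pulling exposes the receptor to ADAM proteases and then to gamma-secretase, which frees the intracellular part to enter the nucleus, bind Rbpj with Mastermind coactivators, and turn on Hes and Hey repressor genes. In the brain the pathway keeps radial glia and precursors undifferentiated, favours astrocyte fates, and in OPCs holds back differentiation when Jagged or Delta ligands are presented by neighbours. Notch4 and Dll4 are best known from endothelium and Notch3 from vascular smooth muscle and pericytes.

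In Ep400 cko samples Notch1 was the 1 member of 10 that passed an adjusted p of 0.05, and it rose by 0.56 ± 0.20 (SE, log2), per the authors' deposited table. None of the 5 ligands passed, and all 5 of their fold changes were negative, between -0.51 for Dll3 and -0.04 for Dll1, per the authors' deposited table. Of the 20101 tested genes 12.2% passed in either direction, 7.64% higher and 4.61% lower, so 1 member of 10 lies near that background. In bulk RNA, fewer cells of a type and less RNA per cell cannot be told apart. All 10 members passed the authors' filter on low means. The median log2 fold change was -0.05 over the members and 0.00 over all tested genes, per the authors' deposited table. The table gives 1 mean over the 6 libraries per gene and no column per sample, so values per replicate, and whether the groups overlap, could not be given. An adjusted p below is from the authors' DESeq2 comparison with Benjamini-Hochberg adjustment, and a fold change is Ep400 cko over ctrl, moderated, as read from the values, towards 0.

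**Figure D1:**
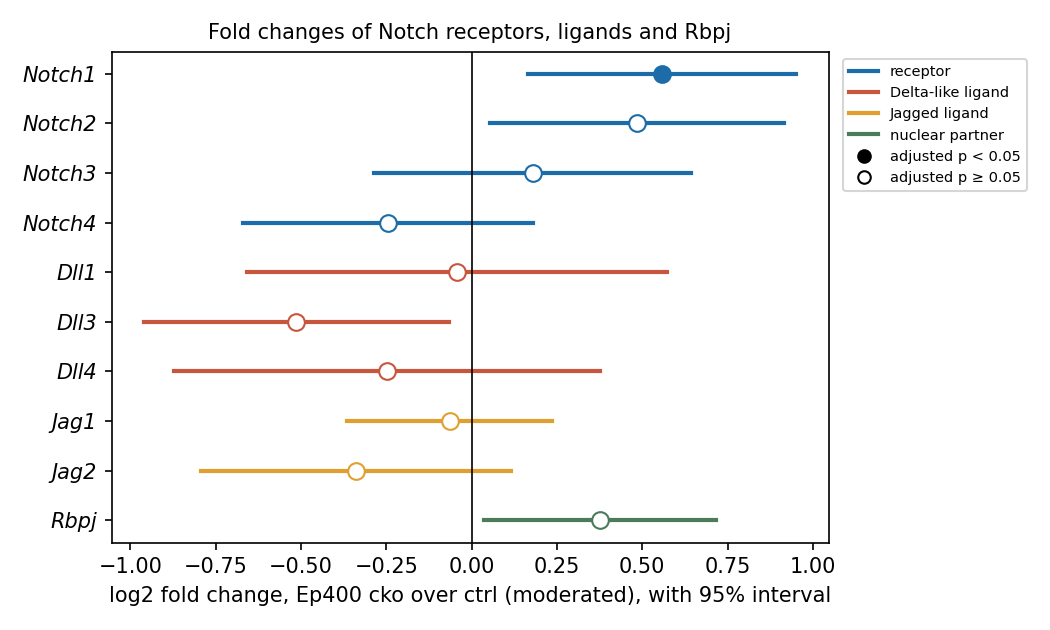
Log2 fold change, Ep400 cko over ctrl, of the 10 members (points) with 95% intervals (lines), coloured by role, over 3 samples a group. Filled points passed an adjusted p of 0.05: Notch1, at 0.56, is filled, and the 5 ligands lie left of 0 with open points.

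The sequences upstream of 3 start sites are shown because Rbpj, through which the receptors act, recognises a short core. They are that of Notch1, the member that passed, and those of the well-known Notch targets Hes5 and Lfng. Hes5 and Lfng were picked because they hold this core, so their difference from Notch1 follows from that choice. Lfng is listed further on with the enzymes that add sugars, not with the 12 target and feedback genes. Each is the 250 bases before the RefSeq start site on the gene's own strand in GRCm38.p6, with the Rbpj core TGGGAA, in either orientation, and the E-box CAGCTG, a site of neural bHLH factors, in capitals. No letters are capital in the Notch1 window, at chr2:26503823-26504072 on the minus strand. This window lies inside the annotated span of Notch1, which reaches base 26516663, and shares 2 bases with a Notch1 exon. The Hes5 window, at chr4:154960673-154960922 on the plus strand, shares 153 bases with an exon of the opposite-strand noncoding Gm20421 and holds the core at -226 and -82, counted to the first base of the match from the start site. The Lfng window, at chr5:140607091-140607340 on the plus strand, shares 21 bases with an exon of Lfng itself. It holds the core at -135 and -108 and the E-box at -146.
Notch1: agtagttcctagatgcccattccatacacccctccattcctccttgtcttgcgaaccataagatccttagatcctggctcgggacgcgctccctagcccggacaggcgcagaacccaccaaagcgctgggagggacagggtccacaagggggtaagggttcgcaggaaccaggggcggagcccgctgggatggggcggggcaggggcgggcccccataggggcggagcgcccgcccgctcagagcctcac
Hes5: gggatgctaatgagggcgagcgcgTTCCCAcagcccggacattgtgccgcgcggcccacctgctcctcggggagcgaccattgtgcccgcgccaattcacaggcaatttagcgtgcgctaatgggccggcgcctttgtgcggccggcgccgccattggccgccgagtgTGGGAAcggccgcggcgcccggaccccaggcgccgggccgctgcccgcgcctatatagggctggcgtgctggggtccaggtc
Lfng: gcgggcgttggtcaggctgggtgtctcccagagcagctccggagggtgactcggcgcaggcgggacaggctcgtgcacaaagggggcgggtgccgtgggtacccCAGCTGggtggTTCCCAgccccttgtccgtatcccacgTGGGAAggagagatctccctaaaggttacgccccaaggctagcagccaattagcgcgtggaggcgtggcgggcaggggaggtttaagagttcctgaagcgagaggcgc

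Among all 32851 promoter windows of the same length in the RefSeq table, the share was 21.6% with TGGGAA and 13.0% with CAGCTG on either strand. All 10 members had a window, some of them 2, and Rbpj was the member with TGGGAA, while Dll1, Dll3 and Jag1 held CAGCTG. Of the 12 target and feedback genes listed further on, 6 had a window and 4 of these, Hes5, Hes7, Hey2 and Fabp7, held TGGGAA. The windows of the remaining genes, Nrarp and Dtx1, did not hold it. A match is a description of letters in these windows, and it was tied to no binding or expression measurement here. The windows of the members had a GC content of 52.0% to 87.2%.

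Per kb of annotated exon, Notch3, Notch1 and Notch2 had the highest transcript levels of the family, while Notch4 stood 8th of the 10. Divided by the length of all annotated exons of each gene, the mean over all 6 libraries was 3870.3 normalised reads per kb for Notch3, 2391 for Notch1, 1228 for Notch2 and 303 for Notch4. Notch3 thus made up 49.7% of the summed receptor level per kb, Notch1 30.7%, Notch2 15.8% and Notch4 3.89%. Among the ligands the level per kb was 1184 normalised reads for Dll3, 1046 for Dll1, 659 for Jag1, 386 for Dll4 and 153 for Jag2. Dll3 and Dll1 held 34.5% and 30.5% of the summed ligand level per kb. The summed level of the 4 receptors was 2.27 times that of the 5 ligands on this scale. Rbpj had 168 normalised reads per kb of exon, but 390.1 per kb of its longest transcript, as its annotated transcripts spread over 12750 exonic bases and its longest holds 5485. The same change of length raised Notch1 to 3586 and Notch3 to 3906 normalised reads per kb, so the gap between these neighbours in the order depends on the length used. Dll3, at 1289, then stood above Notch2, at 1261, and Rbpj above Notch4, at 371, so these orders also depend on the length. No spread between samples was available for these levels, and none of the steps in the order was tested.

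**Figure D2:**
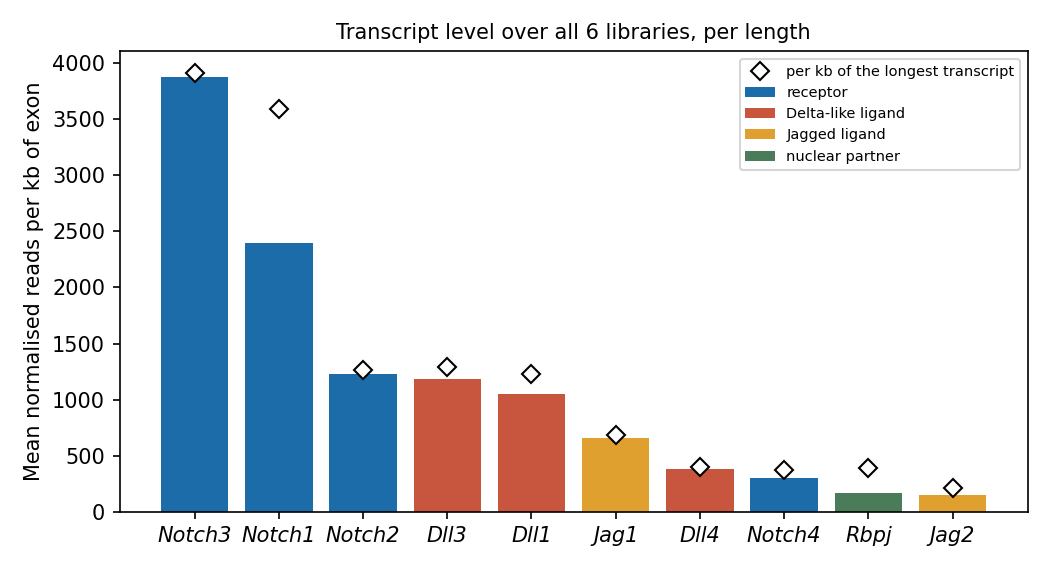
Mean normalised read count over all 6 libraries per kb of annotated exon (bars) and per kb of the longest transcript (diamonds) for the 10 members, coloured by role. Notch3 and Notch1 are highest at 3870.3 and 2391 reads per kb of exon, and Rbpj and Jag2 lowest at 168 and 153.

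Notch1 is the receptor most studied in neural precursors and in OPCs. It spans bases 26457903 to 26516663 of chromosome 2, minus strand (mm10), with 34 exons in its longest transcript and 11 annotated transcripts. Its mean normalised read count of 34025 per the authors' deposited table was above that of 98.7% of tested genes. The fold change of 0.56 on the log2 scale is 1.47-fold, with a 95% interval of 1.12 to 1.93, and an adjusted p of 0.046, per the authors' deposited table. This placed it 2349th by p among the 2462 genes that passed, close to the limit. The call was lost in 3 of 6 alternatives. Its adjusted p was 0.065 with no filter on low means, and 0.19 after the trend of the Wald statistic with transcript length and GC content over all tested genes was removed. With the null distribution widened by the 1.68-fold spread of that statistic it was 0.83. All 12 astrocyte markers, 7 of 10 radial glia markers and all 10 neuron markers had fold changes in the direction of Notch1. The list medians were 1.08, 0.70 and 0.19 on the log2 scale against 0.56 for Notch1. The part of these markers in the value of Notch1 was not tested.

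Notch2, a receptor of radial glia and astrocytes, had a point estimate near that of Notch1 and did not pass. It spans bases 98013527 to 98150361 of chromosome 3, plus strand, and its mean was 13242 normalised reads, per the authors' deposited table. The fold change was 0.49 ± 0.22 (SE, log2; unadjusted p = 0.027, adjusted p = 0.13) per the authors' deposited table, or 1.40-fold with a 95% interval of 1.04 to 1.89. With length and GC trends removed the value of Notch2 was 0.26 on the log2 scale (adjusted p = 0.51), while that of Notch1 was 0.41. A difference between the responses of Notch1 and Notch2 was not tested, since that needs values per sample.

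Notch3 and Notch4 did not pass, with fold changes on opposite sides of 0. Notch3, at bases 32120820 to 32166852 of chromosome 17, minus strand, had a mean of 31307 normalised reads and stood at 0.18 ± 0.24 (SE, log2; adjusted p = 0.69), per the authors' deposited table. Its 95% interval ran from -0.28 to 0.64. Notch4, at bases 34564268 to 34588503 of the same chromosome, plus strand, had a mean of 2444 normalised reads and stood at -0.24 ± 0.22 (SE, log2; adjusted p = 0.52), per the authors' deposited table. Its 95% interval ran from -0.67 to 0.18.

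Of the Delta-like ligands, Dll3 had the fold change farthest from 0. Dll3 is a divergent ligand that stays largely inside the cell and does not activate receptors on neighbours. It spans bases 28293553 to 28302238 of chromosome 7, minus strand, had a mean of 3375 normalised reads, and stood at -0.51 ± 0.23 (SE, log2; unadjusted p = 0.024, adjusted p = 0.12), per the authors' deposited table. On the linear scale that is 0.70-fold, with a 95% interval of 0.51 to 0.95, before adjustment over the tested genes. Dll1, the main activating ligand of neural progenitors, spans bases 15367354 to 15376872 of chromosome 17, minus strand, and had a mean of 4414 normalised reads, per the authors' deposited table. Its fold change was -0.04 ± 0.31 (SE, log2; adjusted p = 0.95), per the authors' deposited table. Dll4, the ligand of sprouting endothelium, spans bases 119325784 to 119335962 of chromosome 2, plus strand. It had a mean of 1488 normalised reads and stood at -0.25 ± 0.32 (SE, log2; adjusted p = 0.68), per the authors' deposited table.

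The Jagged ligands did not pass either. Jag1, a ligand on axons, endothelium and radial glia, spans bases 137081456 to 137116644 of chromosome 2, minus strand. Its mean was 3841 normalised reads and its fold change -0.06 ± 0.15 (SE, log2; adjusted p = 0.84), the narrowest error of the 10 members, per the authors' deposited table. The 95% interval of Jag1 ran from 0.78-fold to 1.18-fold. Jag2, the second Jagged ligand, spans bases 112907819 to 112929776 of chromosome 12, minus strand. It had the lowest mean of the 10, 1066 normalised reads, and stood at -0.34 ± 0.23 (SE, log2; adjusted p = 0.37), per the authors' deposited table.

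Rbpj, which represses target genes until the intracellular part of a receptor binds it, spans bases 53466152 to 53657362 of chromosome 5, plus strand. Its mean was 2139.6 normalised reads, and its fold change of 0.38 ± 0.17 (SE, log2; unadjusted p = 0.031, adjusted p = 0.14) did not pass, per the authors' deposited table. The 95% interval, before adjustment, was 1.02-fold to 1.64-fold. In all, 4 of the 10 members (Notch1, Notch2, Dll3 and Rbpj) had an unadjusted p under 0.05, against 25.6% of all tested genes.

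The precision differed among members and set which estimated changes could have passed. A gene passed where its fold change was at least 2.74 times its standard error. For Jag1 that was 0.42 on the log2 scale, for Rbpj 0.48 and for Notch1 0.55. For Dll1 and Dll4 it was 0.86 and 0.87, so smaller estimates for these ligands could not have passed. This limit applies to the estimate, and the power to detect a true change was not computed. The standard error of Dll1 was larger than that of 98.0% of the 500 tested genes nearest to it in mean, and that of Dll4 larger than 96.0% of its 500. For Jag1 the share was 30.8%. These standard errors belong to moderated fold changes and are not a spread of values per sample.

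**Figure D3:**
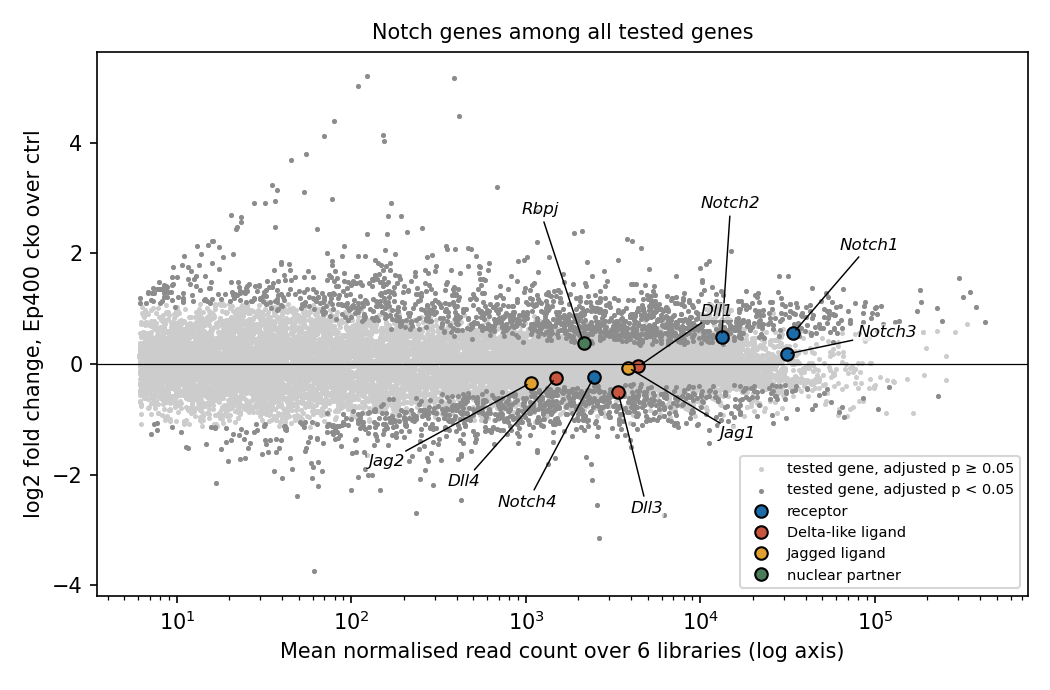
Log2 fold change, Ep400 cko over ctrl, against the mean normalised read count over 6 libraries (log axis) for the 20101 tested genes, those with an adjusted p under 0.05 in darker grey, with the 10 members labelled. The members lie between -0.51 and 0.56, and among them Notch1 and Notch3 have the highest means, 34025 and 31307.

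Overlapping transcripts bear on how far these counts belong to the named genes, and the labels do not say whether reads were counted by strand. Notch1 shares 1068 exonic bases with 0610009E02Rik and 414 with Gm13568 on the opposite strand, which had means of 69.5 and 6.87 normalised reads, per the authors' deposited table. Dll1 shares 867 exonic bases with the opposite-strand A930024N18Rik, and Dll4 shares 214 with the opposite-strand Gm14207, at means of 64.9 and 98.2 normalised reads, per the authors' deposited table. Notch3 shares 488 exonic bases with Gm17276 on the opposite strand, at a mean of 10.4 normalised reads, per the authors' deposited table. On its own strand Notch2 shares 541 exonic bases with Gm42820, which had a mean of 24.9 normalised reads and rose by 1.13 ± 0.39 (SE, log2; adjusted p = 0.036), per the authors' deposited table. Each of these means is small beside that of its member, which does not show how many reads of the member in shared exons were left uncounted. From the deposited means, reads in shared exons cannot be divided between the 2 genes of a pair. The library was strand-specific, which would separate the opposite-strand pairs only if reads were counted by strand.

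The other genes of the pathway were described from lists by role. Of 85 such genes, all tested, 6 rose, 1 fell and 78 did not pass, a share of 8.24% beside 12.2% of all tested genes, and their median log2 fold change was 0.03, per the authors' deposited table. Among 12 target and feedback genes 2 rose and 10 did not pass, with a median of 0.22. An unadjusted p under 0.05 was held by 7 of the 12, with fold changes on both sides of 0, and by 21 of the 85. Among all tested genes that share was 25.6%, and the difference of the 12 from it was not tested. Dtx1, a ubiquitin ligase that binds the Notch intracellular part, rose by 0.63 ± 0.18 (SE, log2; adjusted p = 0.011), per the authors' deposited table. Fabp7, a fatty acid binding protein of radial glia and the most abundant of the list, rose by 0.78 ± 0.28 (SE, log2; adjusted p = 0.048), per the authors' deposited table. Recomputed with no filter on low means, its adjusted p was 0.068, so the call was lost.

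None of the 6 Hes and Hey repressors of that list passed singly, and they are given in full although this choice was made after their values were seen. Hes5 stood at 0.69 ± 0.26 (SE, log2; adjusted p = 0.065) and Hey1 at 0.56 ± 0.21 (adjusted p = 0.053), per the authors' deposited table. Heyl, known from vascular smooth muscle, stood at -0.61 ± 0.25 (SE, log2; adjusted p = 0.084), per the authors' deposited table. Hes1 and Hey2 stood at 0.02 ± 0.18 and -0.03 ± 0.26 (SE, log2; adjusted p = 0.97 and 0.96), and Hes7 at -0.15 ± 0.36 (adjusted p = 0.84), per the authors' deposited table. Hes5 and Hey1 thus lay on the side of Notch1 and Notch2, and Heyl on the other. Hes5 had a mean of 9918 normalised reads and Hes1 2509.9, while Hes7, an oscillator of the embryonic somites, had 47.3, per the authors' deposited table.

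Of 11 enzymes that add sugars to the receptor's extracellular part, 2 rose and 9 did not pass, with a median log2 fold change of 0.04. Lfng, the Fringe enzyme that shifts receptors from Jagged towards Delta ligands, rose by 0.76 ± 0.25 (SE, log2; adjusted p = 0.029) and was the most abundant of them at a mean of 17542 normalised reads, per the authors' deposited table. Eogt, which adds N-acetylglucosamine to EGF repeats, rose by 0.51 ± 0.17 (SE, log2; adjusted p = 0.030) per the authors' deposited table, but its adjusted p was 0.069 with length and GC trends removed. None of 10 protease genes that cut Notch passed, and 1 of the 10 had an unadjusted p under 0.05. Their median was 0.07, and the most abundant, the gamma-secretase subunit gene Ncstn, stood at 0.13 ± 0.14 (SE, log2; adjusted p = 0.61), per the authors' deposited table.

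Of 18 ubiquitin ligases and trafficking factors 1 rose and 17 did not pass, with a median log2 fold change of 0.00. Aak1, a kinase of clathrin adaptors, rose by 0.51 ± 0.17 (SE, log2; adjusted p = 0.031) per the authors' deposited table, but its adjusted p was 0.42 with length and GC trends removed. The most abundant, the ligase gene Nedd4, stood at 0.02 ± 0.14 (SE, log2; adjusted p = 0.95), per the authors' deposited table. None of 24 nuclear cofactors of Rbpj passed, with a median of 0.07, and 6 of the 24 had an unadjusted p under 0.05, a share near the 25.6% of all tested genes.

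Among 10 other Notch-binding or ligand-like genes 1 rose, 1 fell and 8 did not pass, with a median log2 fold change of -0.47. Dlk2, a membrane protein related to Delta that lacks the receptor-binding DSL domain, fell by 1.67 ± 0.39 (SE, log2; adjusted p = 0.00092) at a mean of 426 normalised reads, per the authors' deposited table. Dner, a Delta-like membrane protein best known from neurons, rose by 0.96 ± 0.27 (SE, log2; adjusted p = 0.0064) at a mean of 13884 normalised reads, per the authors' deposited table. Dlk2, Dner, Lfng and Dtx1 each passed in 5 of 6 alternatives, and with the null widened by the spread of the Wald statistic none of the 7 called pathway genes passed.

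**Figure D4:**
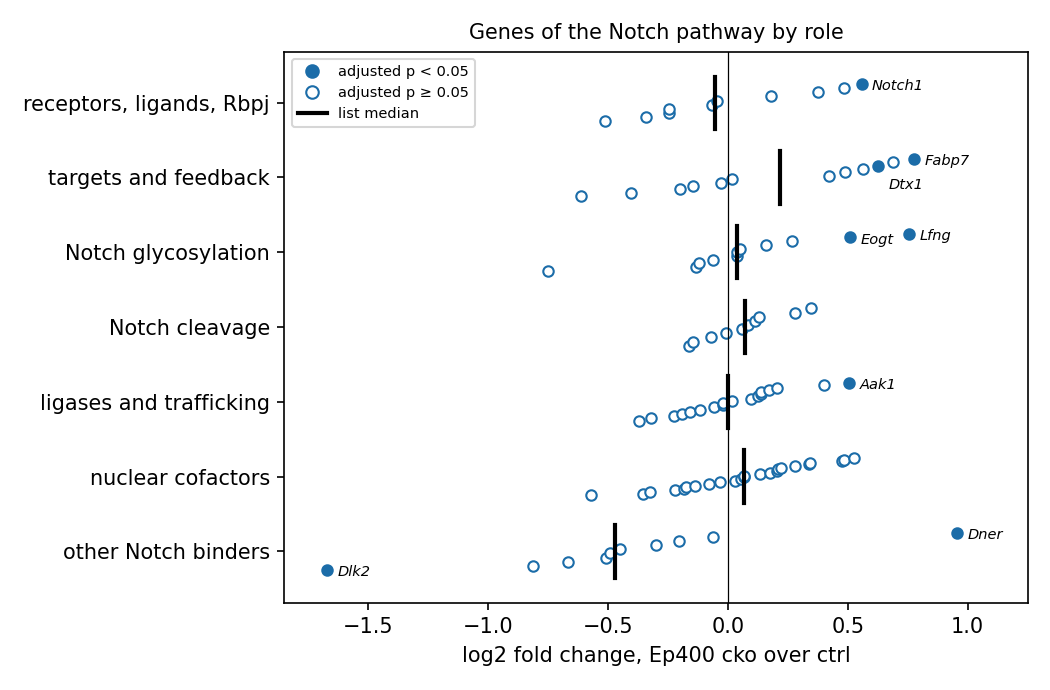
Log2 fold change, Ep400 cko over ctrl, of every gene of the 7 lists (points, rows by role), with the list median as a black bar. Filled, named points passed an adjusted p of 0.05, 1 of the 10 members and 7 of the 85 other genes, and Dlk2 at -1.67 and Dner at 0.96 lie at the ends.

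Markers of several cell types were present and moved between the groups, and their part in the values above was not tested. The table gives no marker level per group, so only fold changes are set beside the members. All 12 astrocyte markers had positive fold changes and 10 of them rose, with a median of 1.08, per the authors' deposited table. Of 10 radial glia markers 7 had positive fold changes and 5 rose, with a median of 0.70, per the authors' deposited table. The most abundant, Slc1a3 and Slc1a2 of astrocytes and Ptprz1 of radial glia, rose by 1.22, 1.33 and 1.30 (log2), per the authors' deposited table. Fabp7 stands in both the target and the radial glia list. Cspg4, at -0.33 (log2), stands in both the mural and the OPC list, per the authors' deposited table. Egfl7, at -0.49 (log2), stands in both the endothelial list and that of other Notch-binding genes, per the authors' deposited table. All 12 mural markers had negative fold changes and 8 fell, with a median of -0.78, per the authors' deposited table. Of 12 endothelial markers 11 had negative fold changes and 1 fell, with a median of -0.33, per the authors' deposited table. Rgs5 and Vtn, the most abundant mural markers, stood at -0.68 and -0.82 (log2), of which Vtn passed, and Slc2a1 and Cldn5 of endothelium at 0.42 and -0.37, per the authors' deposited table. Beside the marker medians Notch1 stood at 0.56, Notch2 at 0.49, Notch3 at 0.18 and Notch4 at -0.24, per the authors' deposited table. The ligand Dll1 stood at -0.04, Dll3 at -0.51, Dll4 at -0.25, Jag1 at -0.06 and Jag2 at -0.34, per the authors' deposited table. Rbpj stood at 0.38, per the authors' deposited table. Of 10 OPC markers 9 had negative fold changes, 1 rose and 2 fell, with a median of -0.45, per the authors' deposited table. All 9 tested oligodendrocyte markers had negative fold changes and 1 fell, with a median of -0.85, per the authors' deposited table. All 10 microglia markers had negative fold changes and 3 fell, with a median of -0.44, per the authors' deposited table. All 10 neuron markers had positive fold changes and 2 rose, with a median of 0.19, per the authors' deposited table. Beside these counts, 12.2% of all tested genes passed in either direction and 49.8% had positive fold changes. All 10 OPC markers were detected, at means of 3578 to 116425 normalised reads, and no marker of any list was at 0. Ep400 itself, at 0.01 ± 0.17 (SE, log2; adjusted p = 0.97) per the authors' deposited table, did not pass, and a count over the whole gene does not resolve deleted exons. The means sum to 80407433 normalised reads per library.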

How the data were processed

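Total RNA of sorted forebrain cells, 3 Ep400 cko and 3 ctrl samples, was sequenced after strand-specific mRNA library preparation, per the labels' protocols. STAR 2.5.1, HTSeq, DESeq2 and mm10 are listed, without roles, in the submitters' processing notes. The deposited file is the authors' own comparison with Ensembl 85 identifiers, per the file headers. The authors deposited a signal per gene, the mean normalised read count over all libraries, which they computed before deposit. Its header calls it a mean of raw counts, but 0.17% of the means above 0 are whole sixths (tolerance 0.001), so it is read here as normalised. The authors' deposited log2 fold changes and log2 standard errors are read as moderated towards 0, since the 4042 genes with means above 0 and under 1 reach at most 0.25 and 0.28, and the deposited score is the Wald statistic, their ratio. The deposited p-value and Benjamini-Hochberg adjusted p-value were recomputed and differed by at most 2.8e-15. Only the name of the file gives the direction of the comparison. Totals per sample are unknown.

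Of 48526 genes, 20101 were tested, all with a mean of at least 6.1. Members, lists and tests were chosen with earlier results of these data known. Exon lengths, positions and GC content come from GENCODE M21 (GRCm38), which held 48058 of the identifiers, and upstream sequences from RefSeq (GRCm38.p6). The genes named are the 10 members, Ep400, the genes of each pathway list past the threshold and its most abundant gene, and the 2 most abundant markers of each of 8 cell type lists, of which those of 4 lists are printed. Overlapping genes, chosen by position, and the Hes and Hey genes, added after their values were seen, stand outside this rule. So do Nrarp, named for its upstream window, and Cspg4 and Egfl7, named because each stands in more than 1 list. Of the genes the rule names, 1 is not reported here. Alternatives changed the filter, the centring, the length and GC trend, and the null. Python 3.11.15, pandas 2.3.3, numpy 2.4.6 and scipy 1.17.1 were used. The trend removal was run on simulated data whose trend had the smooth form that it fits, which cannot show whether it suits these data. Labels call the samples biological replicates. Each p-value tests a moderated fold change against its standard error from the authors' model, and is not a measure of the spread between samples.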

Additional observations from a re-analysis of the deposited data

How the results depend on the processing

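Each of 10 members and 7 called pathway genes was recomputed under 6 alternatives from the authors' deposited table. Apart from Notch1, none of the other 9 members passed in any of the 6, and 8 of the 9 kept their sign in all 6. Dll1 reversed with length and GC trends removed, at a log2 value of 0.01 (adjusted p = 0.99). Under the same removal 3 members that kept their sign moved by over 1.5 times on the log2 scale: Notch2 stood at 0.26, Notch3 at 0.08 and Jag1 at -0.12, against 0.49, 0.18 and -0.06 in the authors' deposited table. The number of members called, 1, became 0 with no filter on low means, with length and GC trends removed, and with the null widened by the 1.68-fold spread of the Wald statistic, where 4 had an unadjusted deposited p under 0.05. The adjusted p of Notch1 ranged from 0.039 to 0.83. Under the widened null 0 of the 85 pathway genes and 74 of all tested genes passed, 58 higher and 16 lower, against 7 and 2462. That alternative attributes the whole central spread of the statistic to error, by its construction. The medians subtracted by the 2 centring alternatives were -0.0025 and -0.0030 on the log2 scale. The level of Rbpj per kb moved to 390.1 normalised reads with the longest transcript. No paired analysis was possible because the table holds no values per sample, and leaving out replicates, a replicate block and a second tool were not run for that reason. The depth per sample is unknown. Dll1 and Dll4, with the largest standard errors of the members, needed the largest estimated changes to pass.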
